A study of Mus musculus with 4 samples.

Results

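The genes described here are 36 integrin, laminin, nidogen and fibronectin genes of the mouse, taken by name from the 27998 genes of the deposited tables and read across the cell classes of pancreatic tumors. They comprise 15 integrin alpha subunits, 8 integrin beta subunits, 10 laminin chains, 2 nidogens and fibronectin (Fn1). The choice was made by name, with earlier results of these data known. Each member symbol was found in the tables, and Itgam was listed under 2 gene identifiers, of which ENSMUSG00000030786 is used.

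Integrins are receptors made of one alpha and one beta subunit that tie a cell to the matrix around it or to other cells, and the pair decides what is bound. Laminins are trimers of an alpha, a beta and a gamma chain that build the basement membrane beneath epithelia and around vessels, muscle and fat cells, and nidogens link them to collagen IV. Fibronectin is a soluble and fibrillar matrix protein that many integrins bind, and pancreatic ductal tumors are known for a dense matrix of this kind.

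The cells came from 2 pancreatic tumors of KPC mice on the C57BL/6J background, which carry KrasLSL-G12D/+, Trp53LSL-R172H/+ and Pdx1-Cre. Cre is driven here by the Pdx1 promoter, which is active in the pancreatic epithelium, so that all groups share the mutated epithelium and the series holds no normal pancreas. Each tumor was dissociated and stained, and 2 fractions were sorted from it for 10x Chromium 3' libraries: all live cells (DAPI-) and a fraction labelled CAFs, for cancer-associated fibroblasts, gated as DAPI-CD45-CD31-EpCAM-PDPN+. The labels give neither the age nor the treatment of the mice, and the stain they list holds an antibody against PDGFRa but none against EpCAM. Tumors 1 and 2 are the 2 replicates, so that each p-value rests on 2 animals. Tests between classes use a spread estimated over all named classes, with no term for the animal unless a block for tumor is named.

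The 4 libraries held 8282 barcodes and 85230726 UMIs (unique molecular identifiers, each counting 1 captured transcript), with 14972652 to 30950993 UMIs per library and median depths of 3287 to 13764 UMIs per barcode. After filtering, 7827 cells remained, and 31 of 8251 distinct barcodes occurred in more than 1 library. Clustering without the 36 genes gave 26 clusters, which were named from marker genes as 12 classes, each written with "-like", and 401 cells stayed unnamed. The sorted CAF library of tumor 1 stood apart from its label: it held 1055 ductal epithelial-like and 178 fibroblast-like cells, against 127 and 880 in that of tumor 2. Cells of both fractions were therefore summed by tumor and class. Tumor 1 gave 2103 ductal epithelial-like, 318 fibroblast-like, 269 mesothelial-like, 21 blood endothelial-like and 495 macrophage or monocyte-like cells, and tumor 2 gave 298, 995, 61, 32 and 1838. Most ductal epithelial-like cells of tumor 1 lay in clusters 0, 2 and 4 and most of those of tumor 2 in clusters 1 and 10, while cluster 11 held more fibroblast-like cells of tumor 1, and cluster 5 more of tumor 2, than any other cluster, so that values for the tumors describe partly different states. Levels are CPM, the UMIs of a gene scaled to the total UMIs of the class in a tumor in the usual way, computed from these sums, and the value for tumor 1 is always given before that for tumor 2. A UMI counts a transcript once whatever its length, so levels of different genes are set side by side without length scaling, although capture can differ between genes.

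**Figure D1:**
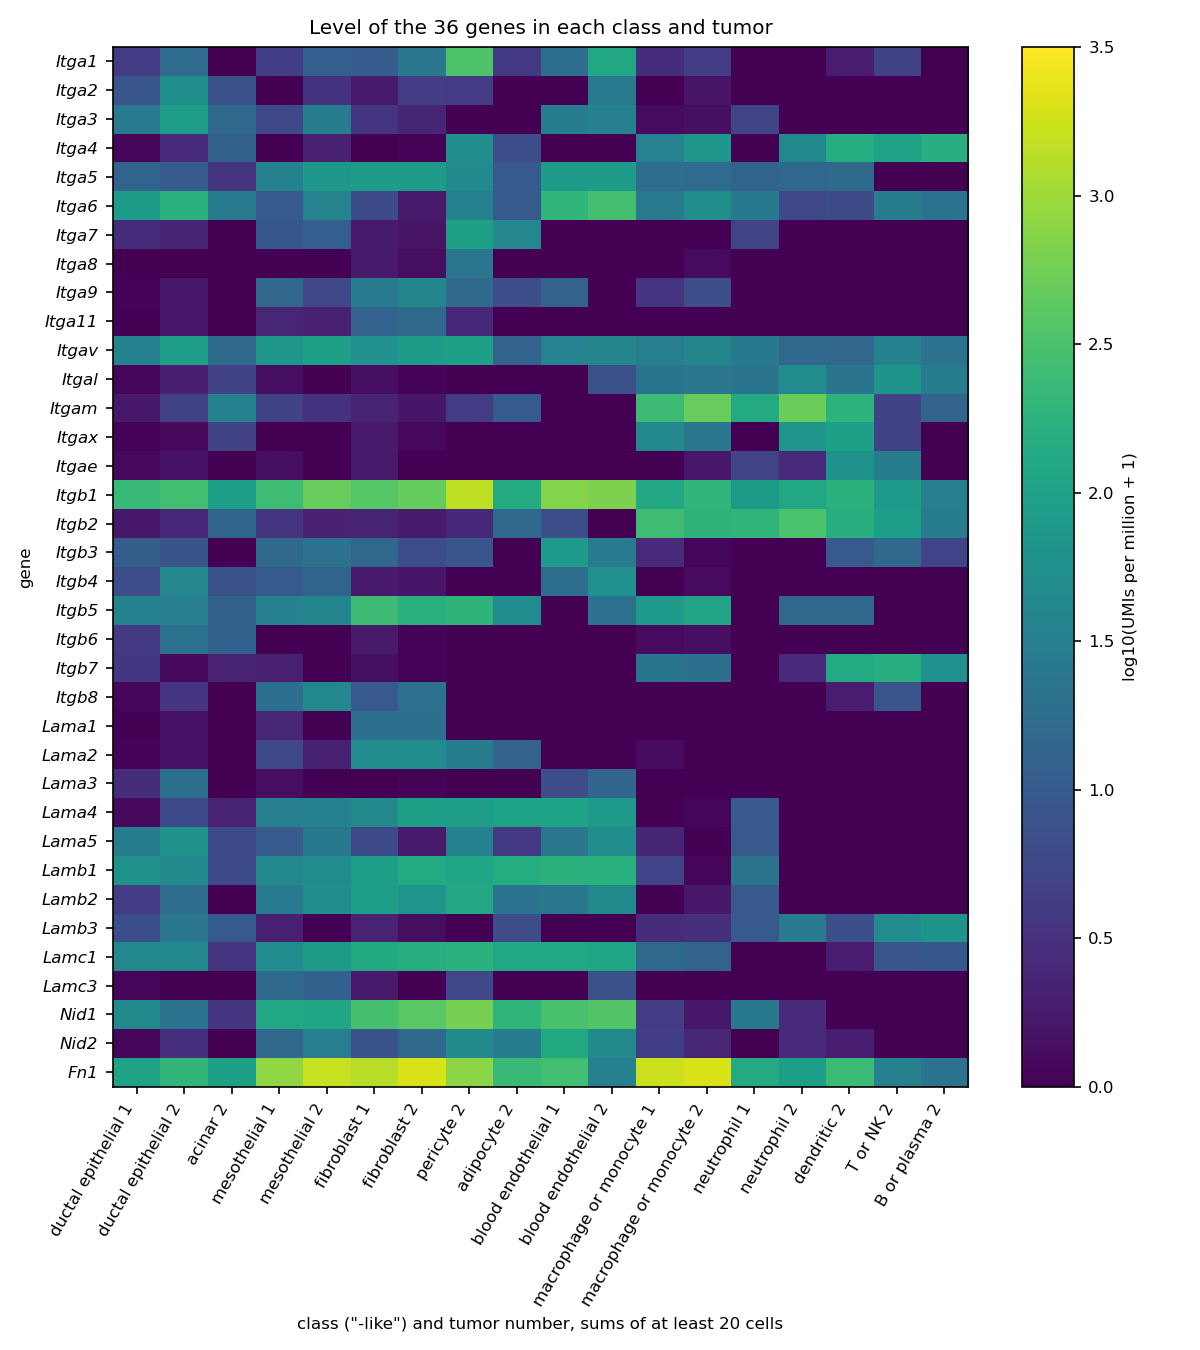
Level of each of the 36 genes (rows, grouped by family) in each sum of cells of 1 class and 1 tumor (columns), as log10 of CPM + 1. Lighter colors mean higher levels. The beta 2 integrins are light in the myeloid columns, and Fn1 and Itgb1 are light in most columns. Lamb1, Lamc1, Lama4 and Nid1 are light in the fibroblast, mesothelial, pericyte and endothelial columns.

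Of the 12 classes, 11 had the highest mean level of at least 1 member. By mean level, 8 genes were highest in pericyte-like cells (Itga1, Itga7, Itga8, Itgav, Itgb1, Lamb2, Lamc1 and Nid1), 6 in fibroblast-like cells (Itga5, Itga9, Itga11, Itgb5, Lama1 and Lama2), 5 in blood endothelial-like cells (Itga6, Itgb3, Itgb4, Lamb1 and Nid2) and 5 in ductal epithelial-like cells (Itga2, Itga3, Itgb6, Lama3 and Lama5). Leukocyte classes led for 9 genes: Itgam and Fn1 in macrophage or monocyte-like cells, Itgb2 in neutrophil-like cells, Itgax and Itgae in dendritic-like cells, Itgal and Itgb7 in T or NK-like cells, and Itga4 and Lamb3 in B or plasma-like cells. Mesothelial-like cells led for Itgb8 and Lamc3, and adipocyte-like cells for Lama4. The first and second class overlapped in their values for Itga2, Itga3, Itga5, Itgam, Itgb2, Itgb4, Itgb5, Itgb6, Itgb8, Lama3, Lama5 and Fn1, so for these the order of the leading pair is not separated by the 2 tumors. Pericyte, adipocyte, acinar, dendritic, T or NK and B or plasma-like cells reached the minimum of 20 cells in tumor 2 alone, so that ranks resting on them have no replicate.

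The most abundant member was Fn1, with 57433 UMIs in the named cells, followed by Itgb1, the shared partner of most matrix-binding alpha subunits, with 22128, and Nid1 with 8452. At the other end, Itga8, the partner of Itgb1 in binding nephronectin, had 23 UMIs in all named cells, the laminin chain Lamc3 64 and Itgae 97. Counts of this size support a location among classes and no comparison of size.

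Ductal epithelial-like cells were compared with fibroblast-like cells to ask which receptors and matrix chains separate the tumor epithelium from its stroma. All 36 members passed the low-count filter, which was applied over all classes together. By edgeR's quasi-likelihood test with Benjamini-Hochberg adjustment over 12131 genes, 19.6% of all genes differed between the classes (7.53% higher and 12.1% lower in the epithelium), and 19 of 36 members did, 7 higher and 12 lower. The median log2 fold change was -0.78 over the members and 0.05 over all genes. With the tumor as a block, edgeR called 27.9% of all genes and, of the members, 8 higher and 13 lower. Genes past the threshold are named below from the fit without the block.

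The 7 genes higher in the epithelium were subunits of laminin receptors and chains of epithelial laminins, plus Itgb6. Itga6, the alpha subunit of the laminin receptors, lies on chromosome 2 at 71745616 to 71858416 (GRCm38) and had 85.8 and 169 CPM in ductal epithelial-like cells, against 5.24 and 0.79 in fibroblast-like cells. Its levels did not overlap, and the log2 fold change was 5.72 ± 1.02 (SE, n = 2 tumors; edgeR adjusted p = 0.00313). Each SE here is the absolute log2 fold change divided by the square root of edgeR's F statistic. In tests between classes it rests on the spread over all named classes and is not the spread between the 2 tumors. Itgb4, its partner in hemidesmosomes, the junctions that anchor epithelia to the basement membrane, had 5.82 and 41.1 CPM against 0.81 and 0.61 (log2 fold change 4.97 ± 1.03, edgeR adjusted p = 0.00807). Itga3, whose product also binds epithelial laminins, had 26.1 and 91.3 CPM against 2.42 and 1.32 (5.04 ± 0.92 on the log2 scale, edgeR adjusted p = 0.00364). Itgb6, the epithelial partner of Itgav in activating TGF-beta, was low in absolute terms, at 2.93 and 20.1 CPM against 0.81 and 0.09 (log2 fold change 5.11 ± 1.39, edgeR adjusted p = 0.0360).

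Among the laminins, Lama3 and Lamb3, chains of the laminin that anchors epithelial cells, and Lama5, the broadly expressed epithelial and vascular alpha chain, were higher in the epithelium. Lama3 had 1.89 and 18.8 CPM in ductal epithelial-like cells, and 0 and 0.09 in fibroblast-like cells (log2 fold change 6.58 ± 1.54, edgeR adjusted p = 0.0166). Lamb3 had 5.91 and 23.5 CPM against 1.21 and 0.35 (4.49 ± 0.90 on the log2 scale, edgeR adjusted p = 0.00710), and Lama5 had 28.8 and 61.9 CPM against 4.84 and 0.79 (4.30 ± 1.13, edgeR adjusted p = 0.0208). For all 7 genes the higher ductal level was in tumor 2. Itga2, a collagen receptor subunit, had 7.64 and 54.6 CPM against 0.81 and 3.34, and its log2 fold change of 3.61 did not pass (edgeR adjusted p = 0.0635).

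The 12 genes lower in the epithelium covered the interstitial receptors, the mesenchymal laminins, both nidogens and fibronectin. Lama2, the alpha chain of muscle and interstitial laminin (chromosome 10, 26980036 to 27619758), had the widest gap, with 0.07 and 0.49 CPM in ductal epithelial-like cells against 48.0 and 48.8 in fibroblast-like cells (log2 fold change -8.07 ± 1.003, edgeR adjusted p = 0.00101). Lama1, an alpha chain better known from embryonic basement membranes, followed the same pattern at a lower level, with 0.05 and 0.49 CPM against 18.2 and 18.3 (-6.74 ± 1.24, edgeR adjusted p = 0.00749). Lama4, the alpha chain of vessels and fat, had 0.23 and 5.14 CPM against 42.8 and 93.5 (-5.13 ± 1.13, edgeR adjusted p = 0.00911).

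Lamc1, Lamb2 and both nidogens had smaller log2 fold changes than these alpha chains. Lamc1, the gamma chain of most laminins, had 42.6 and 41.6 CPM in ductal epithelial-like cells against 134 and 159 (log2 fold change -1.74 ± 0.39, edgeR adjusted p = 0.0119). Lamb2 had 3.24 and 16.9 CPM against 90.8 and 67.3 (-3.07 ± 0.81, edgeR adjusted p = 0.0217). Nid1 (chromosome 13, 13437551 to 13512269) had 46.4 and 20.8 CPM against 299 and 402, and its paralog Nid2 0.16 and 1.96 against 6.86 and 15.01. Their log2 fold changes were -3.26 ± 0.82 and -4.04 ± 1.05 (edgeR adjusted p = 0.0172 and 0.0198). Lamb1 had 60.8 and 46.3 CPM against 90.8 and 135, and did not pass.

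Of the receptors, Itga5, the main fibronectin receptor subunit, was lower in the epithelium, with 12.6 and 9.55 CPM against 85.9 and 82.2 (log2 fold change -2.83 ± 0.43, edgeR adjusted p = 0.00147). Itga9, a receptor subunit for tenascin and osteopontin, had 0.09 and 0.73 CPM against 25.8 and 39.5 (-6.99 ± 1.08), and Itga11, a receptor subunit for fibrillar collagen, 0.05 and 0.73 against 11.7 and 15.2 (-5.81 ± 1.25). Itgb5, a partner of Itgav in binding vitronectin, had 34.0 and 30.8 CPM against 247 and 164 (-2.59 ± 0.61). Fn1 (chromosome 1, 71585520 to 71653200) had 103 and 197 CPM against 1341 and 2021 (-3.49 ± 0.81, edgeR adjusted p = 0.0117). Itgb1 did not pass and was abundant in both classes, at 231 and 273 CPM in ductal epithelial-like and 372 and 477 in fibroblast-like cells. Itga8 was not counted in ductal epithelial-like cells (0 UMIs in both tumors) and had 6 UMIs in fibroblast-like cells, too few for a comparison of size.

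**Figure D2:**
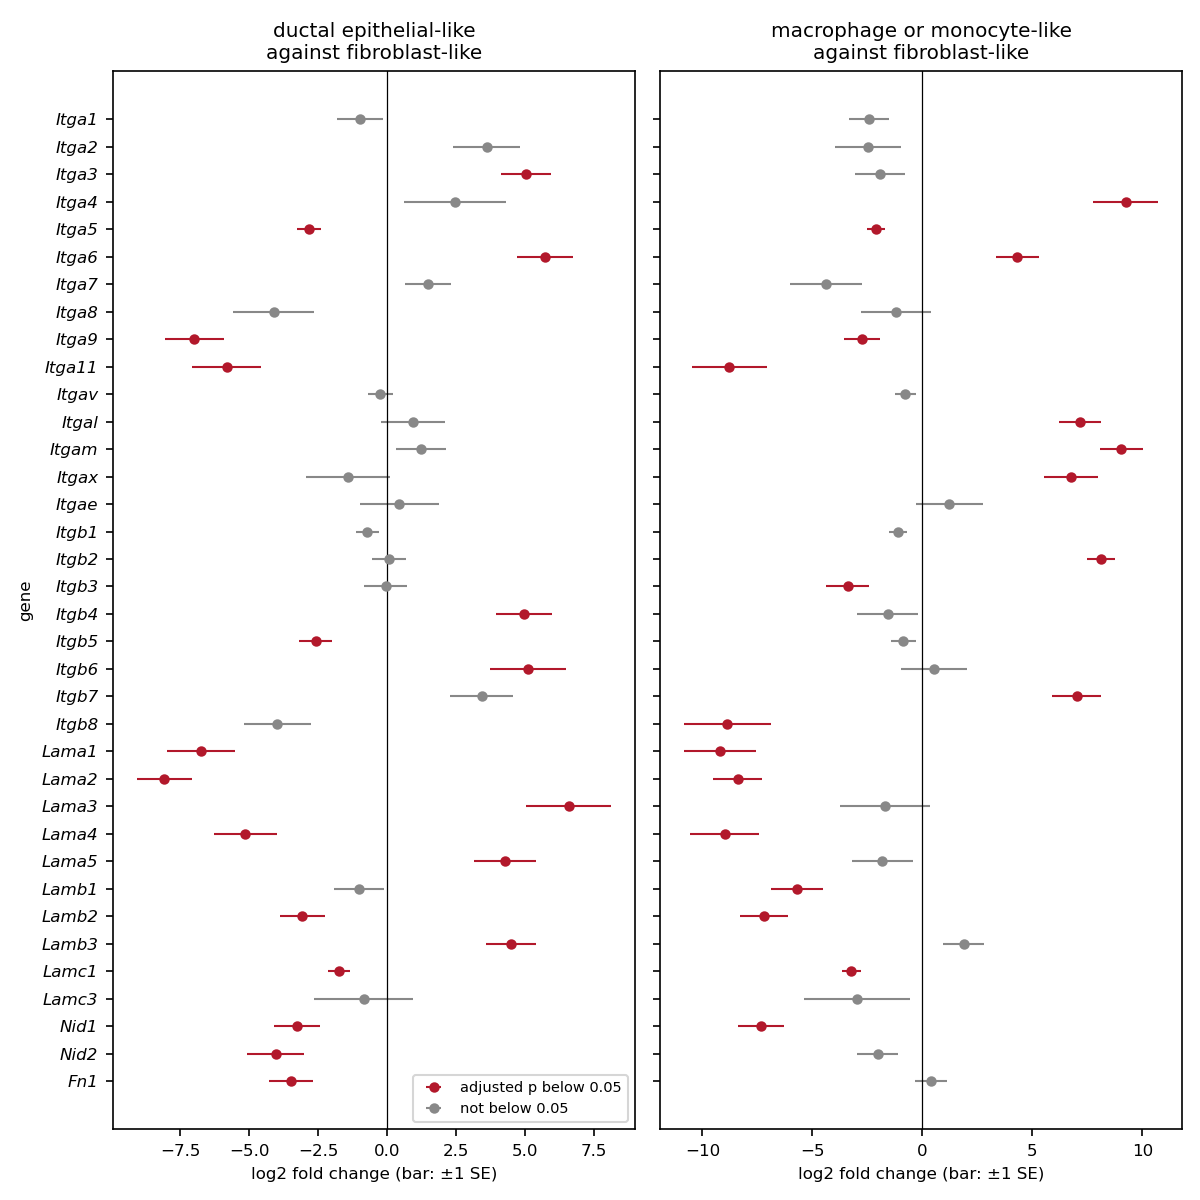
Log2 fold change (horizontal axis, with 1 SE) of each of the 36 genes in ductal epithelial-like (left) and macrophage or monocyte-like cells (right) against fibroblast-like cells, 2 tumors a class. Red points passed an adjusted p of 0.05: 7 genes lie to the right of 0 and 12 to the left in each panel, and both panels use the same fibroblast-like sums.

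Of the fits that left out 1 sum, the one without the fibroblast-like sum of tumor 2 called the fewest members and the fewest of all genes. There the sum of tumor 1 alone was taken to vary like the other classes. With all live libraries alone 12 members passed (2 higher, 10 lower), beside 1226 of 11316 genes. DESeq2 called 13 members (4 higher, 9 lower), beside 1848 of 12131 genes. The main fit had called 2379 of the 12131 genes. The 9 fibroblast markers summed to 31.7 and 42.4 CPM in ductal epithelial-like cells from the all live libraries (Lum, Pdgfra and Fap at 0 in tumor 2) and to 35.9 and 475.69 CPM in those of the sorted libraries (Fap at 0 in tumor 1), so that stromal transcripts were most frequent in ductal epithelial-like cells of the sorted library of tumor 2. Conversely, the 8 ductal markers summed to 721 and 32.5 CPM in the fibroblast-like cells of the all live libraries (Krt18, Krt19, Krt7 and Cdh1 at 0 in tumor 2) and to 276 and 44.8 CPM in those of the sorted libraries (none at 0). The part of either list in these differences was not tested.

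The ductal class was not uniform for these genes. Cluster 10, led by Epcam, Wfdc18, Cldn4, Cldn3 and Cldn7, held 32 cells of tumor 1 (1.52% of ductal epithelial-like cells) and 136 of tumor 2 (45.6%). It is called the Epcam-rich cluster here, and its values are descriptions without a test. In tumor 1 it held 68 of the 81 Lama3 UMIs of the class (84.0%), at 173 CPM against 0.306 in the other ductal epithelial-like cells. In tumor 2 it held 48 of 77 (62.3%), at 38.1 CPM against 10.3. Lama3 was thus nearly restricted to few cells in tumor 1 and spread more widely in tumor 2.

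Lamb3, Itgb4 and Itgb6 were also at higher levels in the cluster in both tumors. Lamb3 had 163 CPM in the Epcam-rich cluster of tumor 1 against 4.47 in the other ductal epithelial-like cells, and 51.6 against 11.0 in tumor 2. Itgb4 had 160 CPM against 4.39 in tumor 1 and 57.9 against 33.6 in tumor 2. Itgb6 had 43.3 CPM against 2.56 in tumor 1 and 45.2 against 8.85 in tumor 2, so that its level in the cluster was close in both tumors.

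Other members did not separate the cluster in the same way in both tumors. Itga3 had 120 CPM against 25.3 in tumor 1 but 92.1 against 91.0 in tumor 2. Fn1 had 1683 CPM against 88.1 in tumor 1, and in tumor 2 the order was opposite, with 84.9 against 247. Nid1 was lower in the cluster in both tumors, at 7.64 CPM against 46.8 and 3.17 against 28.7. Of the 9 fibroblast markers, Lum, Fap and Dpt were at 0 in the cluster in tumor 1 and Pdgfra and Fap in tumor 2, and the list summed to 40.7 and 200.8 CPM there, against 32.3 to 36.7 in the other ductal clusters of tumor 1 and 263 to 339 in those of tumor 2. When the cluster was left out of the ductal sums, an alternative chosen after seeing the data, 19 members passed, 6 higher and 13 lower. Over all genes 2591 of 12092 passed, and 17 of the 19 members were among those called above. Lama3 then no longer passed, with a log2 fold change of 5.58 (edgeR adjusted p = 0.0659), and Itgb6 did not pass the low-count filter.

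**Figure D3:**
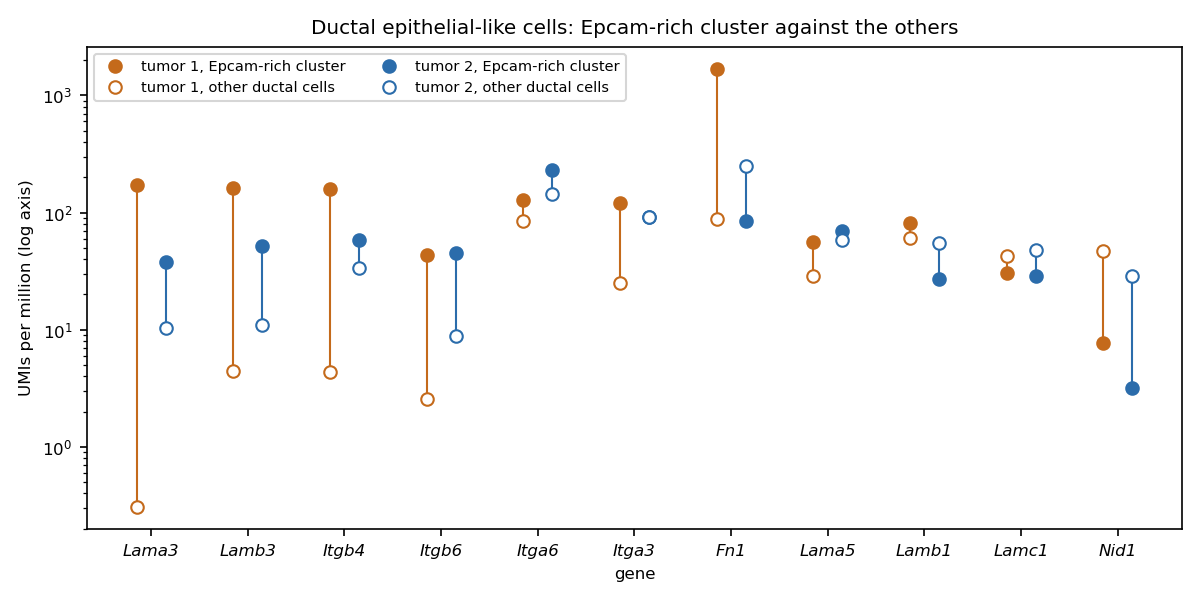
Level (CPM, log axis) of 11 genes in the Epcam-rich ductal cluster and in the other ductal epithelial-like cells, in each tumor. Lama3, Lamb3, Itgb4 and Itgb6 lie higher in the cluster in both tumors, Nid1 lies lower in both, and Fn1 changes order between the tumors.

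A second ductal cluster, led by Npy and Cpe and numbered 4, held 541 cells of tumor 1 and 21 of tumor 2. In tumor 2 it had 63.0 CPM of Lama3, against 38.1 in the Epcam-rich cluster, and 126 of Itga2 and 243 of Itga6. These values rest on 21 cells, 15 of them from the sorted library. In tumor 1, the ductal epithelial-like cells outside the Epcam-rich cluster, which include cluster 4, had 0.306 CPM of Lama3. The Fn1 level of cluster 4 was 359 CPM in tumor 1 and 552 in tumor 2, above the 103 and 197 of the whole class. The 9 fibroblast markers summed to 35.6 and 339 CPM in cluster 4, and their part in these levels was not tested.

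The makeup of each chain family, a share that does not depend on scaling, set the classes apart. Of the laminin alpha UMIs of ductal epithelial-like cells, Lama5 took 92.8% in tumor 1 (95% Clopper-Pearson interval 91.3 to 94.1) and 71.3% in tumor 2 (66.3 to 75.9), and Lama3 took 6.09% and 21.7%. Fibroblast-like cells used 3 alpha chains: Lama4 took 37.6% (31.9 to 43.5) and 57.9% (55.6 to 60.2), Lama2 42.2% and 30.2%, and Lama1 15.96% and 11.3%. In mesothelial-like cells Lama4 took 66.9% and 56.6% and Lama5 19.4% and 41.5%. In blood endothelial-like cells Lama4 took 78.3% and 54.5%, of only 23 and 22 UMIs.

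Beta chains were divided otherwise. Lamb1 took 86.9% and 53.4% of the laminin beta UMIs of ductal epithelial-like cells, and Lamb3 8.46% and 27.1%. Fibroblast-like cells shared them between Lamb1 (49.7% and 66.6%) and Lamb2 (49.7% and 33.2%), with Lamb3 near 0. In the pericyte-like cells of tumor 2, Lamb2, the beta chain of mature vascular and muscular basement membranes, took 53.5%.

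**Figure D4:**
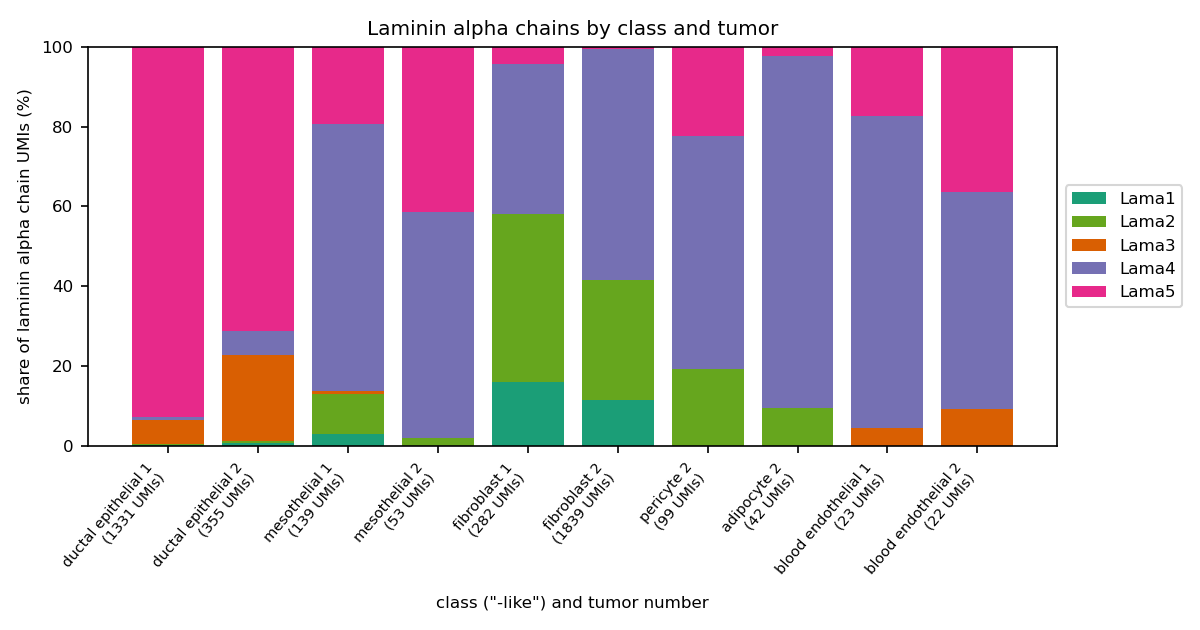
Share of laminin alpha UMIs taken by each of the 5 alpha chains, as stacked bars (percent) for each class and tumor, with the number of UMIs in the label. Lama5 fills most of the ductal bars, Lama4, Lama2 and Lama1 the fibroblast bars, and Lama4 most of the mesothelial, endothelial, pericyte and adipocyte bars.

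Integrin beta subunits were dominated by Itgb1 outside the leukocytes. It took 80.4% and 72.6% of beta UMIs in ductal epithelial-like cells, 57.6% and 71.4% in fibroblast-like cells and 87.6% and 86.4% in blood endothelial-like cells. Itgb5 took most of the rest in fibroblast-like cells (38.4% and 24.6%). In macrophage or monocyte-like cells Itgb2, the beta 2 subunit of leukocyte integrins, took 52.5% and 35.9%, Itgb1 26.6% and 39.0%, and Itgb5 15.97% and 21.5%. Neutrophil-like cells had the highest Itgb2 shares, 70.8% and 70.1%. Of alpha UMIs, Itga6 took 49.8% and 38.6% in ductal epithelial-like cells, Itga5 42.3% and 32.8% in fibroblast-like cells, and Itgam 58.5% and 67.0% in macrophage or monocyte-like cells.

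Macrophage or monocyte-like cells had higher levels of leukocyte integrins and lower levels of most laminin chains than fibroblast-like cells, and other leukocyte classes shared these integrins. Against fibroblast-like cells, 23.6% of the 12131 genes differed (9.91% higher and 13.7% lower), and 19 of 36 members did by edgeR's quasi-likelihood test, 7 higher and 12 lower. The median log2 fold change was -1.88 over the members and 0.00 over all genes. With the tumor as a block, edgeR called 30.7% of all genes and, of the members, 7 higher and 14 lower. Genes are again named from the fit without the block. This comparison uses the same fibroblast-like sums as the one above, as do those of mesothelial and endothelial-like cells below.

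The higher genes were 4 members of the leukocyte-restricted families (Itgam, Itgax, Itgal and Itgb2), the pair Itga4 and Itgb7, which bind VCAM1 and the gut homing ligand MAdCAM1, and Itga6. Itgam, the CD11b alpha subunit, had 250 and 486 CPM against 1.21 and 0.61 (log2 fold change 9.05 ± 0.99, edgeR adjusted p = 2.4e-04). Itgb2, its only beta partner, had 257 and 186 CPM against 1.21 and 0.79 (8.11 ± 0.64, edgeR adjusted p = 9.7e-05). Itgax, the CD11c alpha subunit, had 41.8 and 24.0 CPM, and Itgal, the LFA-1 alpha subunit, 22.2 and 23.3 (log2 fold changes 6.77 ± 1.24 and 7.17 ± 0.95). Itga4 had 34.8 and 70.7 CPM against 0 and 0.09 (9.25 ± 1.48, edgeR adjusted p = 0.00138), and Itgb7 22.2 and 18.3 CPM (7.01 ± 1.10, edgeR adjusted p = 0.00127). Itga6 had 26.5 and 54.9 CPM against 5.24 and 0.79 (4.32 ± 0.98, edgeR adjusted p = 0.00751), below its ductal level in both tumors.

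Itgal, Itgam and Itgax lie near each other on the plus strand of chromosome 7, at 127296260 to 127335138, 128062640 to 128118491 and 128129547 to 128150657. Because these leukocyte genes were high in the same class, the 250 bases before the RefSeq start of some of them (GRCm38.p6) are printed, in the direction of transcription, with Nid1 as a stromal gene for contrast. Capitals mark GAGGAA or, on the other strand, TTCCTC, the core motif that PU.1, a myeloid transcription factor, is known to bind. Of the 36 genes, 22 had a promoter in the RefSeq table (25 promoters), and 13 of them held the motif, as did 23.3% of 32851 promoters of this length.
Itgam, 7:128062390-128062639: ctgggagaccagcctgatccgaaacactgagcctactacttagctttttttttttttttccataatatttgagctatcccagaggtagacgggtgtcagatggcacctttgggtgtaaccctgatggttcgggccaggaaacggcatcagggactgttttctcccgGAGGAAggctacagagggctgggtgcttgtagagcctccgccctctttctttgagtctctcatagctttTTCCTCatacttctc
Itgax, 7:128129300-128129549: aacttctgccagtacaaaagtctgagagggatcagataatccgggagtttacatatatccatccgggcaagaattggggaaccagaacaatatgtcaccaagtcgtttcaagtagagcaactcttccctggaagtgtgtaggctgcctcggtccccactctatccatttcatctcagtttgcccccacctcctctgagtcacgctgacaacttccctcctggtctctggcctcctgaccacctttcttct
Itgb7, 15:102231936-102232185 (minus strand): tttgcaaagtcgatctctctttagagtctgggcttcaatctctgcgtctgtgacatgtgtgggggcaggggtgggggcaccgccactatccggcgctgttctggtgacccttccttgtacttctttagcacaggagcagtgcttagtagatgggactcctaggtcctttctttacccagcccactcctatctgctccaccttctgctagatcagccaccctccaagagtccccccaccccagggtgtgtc
Nid1, 13:13437352-13437601: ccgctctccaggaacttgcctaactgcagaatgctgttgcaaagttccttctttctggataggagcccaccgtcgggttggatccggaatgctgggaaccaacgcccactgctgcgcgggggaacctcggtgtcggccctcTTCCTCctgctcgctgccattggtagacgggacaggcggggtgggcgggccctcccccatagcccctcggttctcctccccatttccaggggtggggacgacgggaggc
The window before Itgam held 2 matches, 84 and 15 bases from the start, that before Nid1 held 1, 109 bases from the start, and those before Itgax and Itgb7 held none. A match is a description of the letters, and the motif occurred before a stromal gene as well as before a myeloid one.

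The 12 lower genes were mostly matrix chains. Lama2 had 0.27 and 0 CPM in macrophage or monocyte-like cells (log2 fold change -8.40 ± 1.12, edgeR adjusted p = 7.4e-04), Lama4 0 and 0.14 (-8.99 ± 1.57, edgeR adjusted p = 0.00173) and Lamb2 0 and 0.69 (-7.19 ± 1.09, edgeR adjusted p = 7.9e-04). Lamb1 had 4.02 and 0.14 CPM (-5.69 ± 1.17) and Nid1 3.21 and 0.69 (-7.35 ± 1.04). Lamc1 kept a level of 14.2 and 12.1 CPM (-3.23 ± 0.42), so that a gamma chain was counted where alpha and beta chains were nearly absent. Itga11, Itgb8 and Lama1 were not counted in this class, and with a limit of 3 UMIs over both tumors they were at least 53.3-fold, 63.9-fold and 66.8-fold lower than in fibroblast-like cells. Itga5 (-2.11 ± 0.42), Itga9 (-2.75 ± 0.82) and Itgb3 (-3.39 ± 0.98) were the other receptors lower by the same edgeR test (adjusted p = 0.00388, 0.0347 and 0.0300).

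Fibronectin did not separate these classes. Fn1 had 1707 and 2011 CPM in macrophage or monocyte-like cells and 1341 and 2021 in fibroblast-like cells, so the groups overlapped. The 9 fibroblast markers summed to 81.8 and 53.5 CPM in macrophage or monocyte-like cells from the all live fractions, with Pdgfra at 0 in tumor 2. The part of stromal transcripts in the Fn1 level was not tested. Itgb1 was lower in macrophage or monocyte-like cells without passing the threshold, with a log2 fold change of -1.11 (edgeR adjusted p = 0.0762).

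Within the class, the clusters differed in their integrins, which is given as a description. Cluster 14, led by Ccr2 and Ly6c2, genes of classical monocytes, had 108 CPM of Itga4, 53.2 of Itgb7, 50.9 of Itgal and 6.3 of Itgax in tumor 2. Cluster 3, led by Chil3, Mmp12 and Arg1, had 49.4 and 90.8 CPM of Itgax, 18.4 and 13.6 of Itgb7 and 1906 and 2864 of Fn1 in tumors 1 and 2. Cluster 8, led by Pf4 and Ms4a7, had 146 CPM of Itgb5, 68.9 of Itga6 and 5.9 of Itgb7 in tumor 2. Cluster 9, led by Retnla and with Folr2 and Lyve1 among its leading genes, had 90.5 CPM of Itga4 but 3.9 of Itgal and 3.9 of Itgax (2 UMIs each) in tumor 2. In tumor 2, Itgal and Itgb7 were thus highest in the monocyte-led cluster, and Itgax and Fn1 in the Arg1-led one.

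The other leukocyte classes carried the same families in other proportions. Dendritic-like cells of tumor 2 had 146 CPM of Itga4, 138 of Itgb7, 180 of Itgam, 92.9 of Itgax and 61.6 of Itgae, the CD103 alpha subunit that pairs with Itgb7 and binds E-cadherin. T or NK-like cells had 160 CPM of Itgb7 (43 UMIs), 104 of Itga4 and 63.4 of Itgal. Neutrophil-like cells had 138 and 498 CPM of Itgam and 192 and 320 of Itgb2. The tumors differed in their neutrophil-like clusters. Cluster 16, led by Ngp, Camp and Ltf, held 26 of the 31 cells of tumor 1. Cluster 12, led by G0s2 and Gm5483, held 253 of the 259 of tumor 2.

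Blood endothelial-like cells were few, 21 and 32 cells with 171968 and 156483 UMIs, which limits what could pass. Against fibroblast-like cells, 5.16% of the 12131 genes differed (2.71% higher, 2.45% lower), and 4 of 36 members did by edgeR's test, 2 higher and 2 lower. Itga6 had 198 and 288 CPM (log2 fold change 6.28 ± 1.06, edgeR adjusted p = 0.00696) and Itgb4 17.4 and 57.5 CPM, from 3 and 9 UMIs (5.33 ± 1.16, edgeR adjusted p = 0.0272). Both subunits of the laminin receptor alpha 6 beta 4 were therefore higher than in fibroblast-like cells, as they were in the epithelium. Itgb5 was lower, with 0 and 19.2 CPM against 247 and 164 (-4.83 ± 0.88, edgeR adjusted p = 0.00961), and Fn1 was lower, with 279 and 32.0 CPM (-3.72 ± 0.84, edgeR adjusted p = 0.0275). The median log2 fold change was -0.98 over the members and -0.24 over all genes.

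With a block for tumor, 7.7% of all genes and 6 members passed, adding Itga3 (log2 fold change 3.95, edgeR adjusted p = 0.0458) and Lama2 (edgeR adjusted p = 0.0426). Lama2 was not counted in endothelial-like cells, at least 5.33-fold below its fibroblast level. Fewer members and fewer of all genes passed when any 1 fibroblast-like or endothelial-like sum was left out. Several basement membrane chains had levels near those of fibroblast-like cells: Nid1 had 314 and 364 CPM, Lamb1 174 and 173, Lamc1 122 and 115 and Lama4 105 and 76.7, and none of them passed. Nid2 had 134 and 44.7 CPM, its highest mean level among the classes. Pericyte-like cells, summed in tumor 2 alone, had 44.5 CPM of Nid2, so that these classes were close in that tumor. The fibroblast markers summed to 227 and 23.5 CPM in these cells of the all live libraries, with 4 and 6 of 9 at 0 (Lum, Pdgfra, Fap and Dpt in both, and Dcn and Pdpn in tumor 2), and their part in these levels was not tested. In the same cells 4 lymphatic endothelial markers summed to 372 CPM (none at 0) and 31.3 CPM (Prox1, Mmrn1 and Reln at 0). Of 5 endocrine markers Chga alone was counted, at 11.6 and 893 CPM. The part of either list was not tested.

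Mesothelial-like cells, the lining of the peritoneal surface, gave few calls against fibroblast-like cells. Of the 12131 genes 0.948% differed (0.462% higher and 0.486% lower), and none of the 36 members did by edgeR (12 at an unadjusted p under 0.05), against 1 by DESeq2 (Itgb5). With the tumor as a block 2.35% of all genes and 3 members passed: Itgb4 was higher (log2 fold change 4.29, edgeR adjusted p = 0.0342), and Itgb5 (-2.62, edgeR adjusted p = 0.0292) and Lama2 (-3.85, edgeR adjusted p = 0.0340) were lower. Itgb4 had 8.92 and 12.3 CPM in mesothelial-like cells, Itgb5 34.0 and 37.0, and Lama2 4.80 and 1.12. The median log2 fold change without the block was -0.09 over the members and -0.04 over all genes. The 9 fibroblast markers summed to 16405, 16563 and 16509 CPM in the mesothelial-like cells of the 3 libraries with at least 20 of them (all live of tumor 1, sorted of tumors 1 and 2), with none at 0, and their part in these levels was not tested.

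Lamc3 and Itgb8 had their highest mean level in mesothelial-like cells without passing. Lamc3, a gamma chain of restricted distribution, had 14.8 and 11.2 CPM (43 and 10 of its 64 UMIs) against 0.81 and 0 in fibroblast-like cells, with a log2 fold change of 5.67 ± 1.55 (edgeR adjusted p = 0.172). Itga7, a laminin receptor subunit of muscle that was highest in pericyte-like cells, had 8.23 and 10.1 CPM in mesothelial-like cells and did not pass either (log2 fold change 3.72, edgeR adjusted p = 0.0945). Itgb8, a TGF-beta activating subunit, had 18.2 and 41.5 CPM against 8.47 and 19.4, and these overlapped. Fn1 had 823 and 1601 CPM and Nid1 120 and 118.

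Pericyte-like cells, the mural cells of small vessels, are described for tumor 2 alone (79 cells, 651738 UMIs) without a test. Itgb1 had 1475 CPM (961 UMIs) and Itga1, a collagen and laminin receptor subunit, 330 CPM (215 UMIs), against 477 and 23.8 CPM in the fibroblast-like cells of the same tumor. Itga7 had 96.7 CPM (63 UMIs), and 15 of the 23 Itga8 UMIs of the named cells lay here. Nid1 had 595 CPM, Lamc1 169, Lamb2 129, Lama4 89.0 and Lama5 33.8. In the sorted library of tumor 2, the 5 smooth muscle markers summed to 2041 CPM in this class (none at 0) and the 9 fibroblast markers to 5202 CPM (Pdgfra at 0), and their part in these levels was not tested. Adipocyte-like cells (30 cells of tumor 2) had 107 CPM of Lama4, which took 88.1% of their 42 laminin alpha UMIs, and 40.5 CPM of Itga7.

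Fibroblast-like cells were clustered again, and 2 states were compared: inflammatory-like cells (66 and 305 cells), led in their 2 subclusters by genes such as Sfrp4, Cd55, Cxcl13 and Cxcl12, and myofibroblast-like cells (55 and 179). The second name rests on 3 of 8 markers (Tagln, Col12a1 and Thbs2), and 185 and 397 fibroblast-like cells stayed without a state. Of 8942 genes 0.984% differed (0.537% higher and 0.447% lower), and none of the 18 members that passed the low-count filter did by edgeR (6 at an unadjusted p under 0.05, 0 by DESeq2). The median log2 fold change was 0.25 over these members and 0.00 over all genes.

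With a block for tumor, which sets the states of each tumor against each other, 7.15% of the 8942 genes passed by edgeR, and 6 of the 18 members did, 3 in each direction. Lama2 was higher in inflammatory-like cells, with 71.2 and 85.2 CPM against 26.5 and 38.3 (log2 fold change 1.29 ± 0.36, edgeR adjusted p = 0.177, and 1.30 with the block, adjusted p = 0.00676). Lamc1 had 251 and 240 CPM against 116 and 144 (0.95 with the block, edgeR adjusted p = 0.0322), and Nid1 448 and 697 against 253 and 304 (1.06, edgeR adjusted p = 0.0365). A laminin alpha chain, a gamma chain and the linker Nid1 were thus higher in the inflammatory-like state in both tumors.

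The opposite direction held receptor subunits and a laminin alpha chain. Itgb8 had 6.28 and 6.88 CPM in inflammatory-like cells against 24.8 and 33.3 in myofibroblast-like cells (log2 fold change -2.06 ± 0.45, edgeR adjusted p = 0.0804, and -2.12 with the block, adjusted p = 0.00532). Itga9 had 6.28 and 23.6 CPM against 51.3 and 59.7 (-1.63 with the block, edgeR adjusted p = 0.0201). Lama1 had 12.6 and 1.64 CPM against 14.9 and 31.4 (-2.82 with the block, edgeR adjusted p = 0.0244), and in tumor 1 its levels were close. The inflammatory-like values of tumor 1 rest on 3 UMIs of Itgb8, 3 of Itga9 and 6 of Lama1, and that of Lama1 in tumor 2 on 5. Fibroblast-like cells without a state had 1.63 and 21.2 CPM of Itgb8, 16.3 and 39.2 of Itga9 and 22.0 and 23.2 of Lama1. The block moved the count of members from 0 to 6, and the share of all genes from 0.984% to 7.15%. Without a block, members also passed when the tumor 1 sum of either state was left out, and more of all genes passed there as well.

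**Figure D5:**
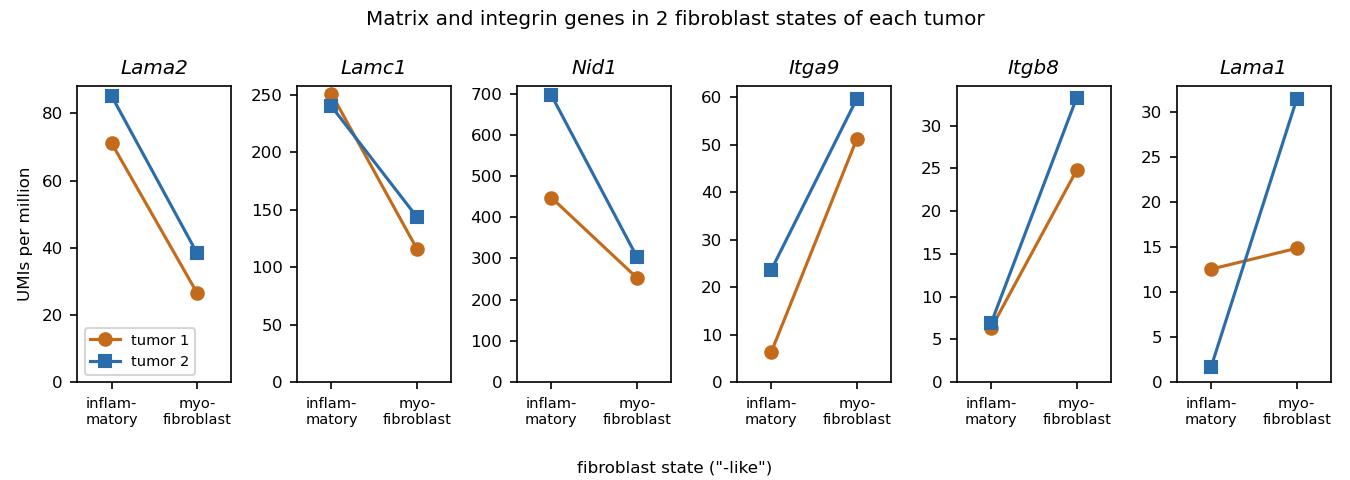
Level (CPM) of Lama2, Lamc1, Nid1, Itga9, Itgb8 and Lama1 in inflammatory-like and myofibroblast-like cells of each tumor, with a line joining the values of 1 tumor. The lines fall toward the myofibroblast-like state for Lama2, Lamc1 and Nid1 and rise for Itga9, Itgb8 and Lama1.

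Other members differed less between the states or in 1 tumor. Fn1 had 1484 and 3103 CPM in inflammatory-like and 1782 and 1933 in myofibroblast-like cells, so its order differed between the tumors. Itgb1 had 278 and 335 CPM against 415 and 603, Itga5 107 and 63.9 against 136 and 96.2, and Lama4 64.9 and 132 against 41.3 and 74.3, and none of these passed. The highest Nid1 levels lay in both inflammatory-like subclusters of tumor 2, at 746 and 663 CPM.

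The study sorted each tumor into both fractions, and the sort was compared in whole libraries and within classes. In whole libraries 0% of 14030 genes passed by edgeR (543 at an unadjusted p under 0.05), and none of the 35 members tested did (4 unadjusted: Itgal, Itgax, Itgae and Itgb2), with a median log2 fold change of 0.26 over the members and 0.05 over all genes. DESeq2 called 438 genes and 4 members, all lower in the sorted libraries: Itgal, Itgam, Itgax and Itgb2 (adjusted p = 0.00617, 0.0178, 0.00625 and 0.00362). Itgam had 35.5 and 342 CPM in all live cells and 0 and 6.33 in sorted cells, and Itgb2 36.1 and 142 against 0.13 and 4.83. Macrophage or monocyte-like cells, which express the CD45 that the gate removes, numbered 494 and 1814 in the all live and 1 and 24 in the sorted libraries, and their part in these differences was not tested. Fn1 had 415 and 1343 CPM in the all live and 188 and 1592 in the sorted libraries, so its order differed between the tumors, and Nid1 had 56.7 and 28.4 against 64.8 and 320. In such sums, fewer cells of a type and less RNA per cell cannot be told apart.

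Within ductal epithelial-like cells 0% of 12242 genes differed by sort (edgeR; 92 unadjusted, 30 by DESeq2), and none of 24 members did (1 unadjusted, Itgam; 0 by DESeq2), with a median log2 fold change of -0.15 over the members and 0.01 over all genes. When the tumor was a block, 0.907% of genes passed, and Itgam was lower in sorted cells (log2 fold change -7.75, edgeR adjusted p = 0.0161), with 1.35 and 10.3 CPM in the all live and 0 and 0 in the sorted libraries. The 9 macrophage markers moved with it, summing to 116.75 and 178.6 CPM with none at 0, against 36.1 (Adgre1 and Ccr2 at 0) and 14.6 (Adgre1, C1qb, Ccr2 and Ly6c2 at 0), and their part in it was not tested. Lama3, Lamb3 and Itgb4 had higher levels in tumor 2 than in tumor 1 in both fractions. Lama3 had 3.22 and 22.5 CPM in the all live and 0.35 and 16.6 in the sorted libraries, Lamb3 6.88 and 34.7 against 4.81 and 16.6, and Itgb4 7.40 and 46.3 against 4.01 and 38.0. Epcam, which the gate excludes, had 56.5 and 1799 CPM against 6.86 and 169, and the Epcam-rich cluster gave 31 and 120 cells to the all live and 1 and 16 to the sorted libraries.

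Within fibroblast-like cells 0% of 8742 genes differed by sort (edgeR; 60 unadjusted, 19 by DESeq2), and none of 17 members did (0 unadjusted, 0 by DESeq2), with a median log2 fold change of -0.02 over the members and -0.01 over all genes. Fn1 had 1372 and 1756 CPM in the all live and 1309 and 2039 in the sorted libraries, Nid1 288 and 373 against 309 and 404, and Itga5 109 and 57.9 against 62.8 and 83.8. For each the fractions overlapped, and the tumors stood in the same order in both fractions for Fn1 and Nid1. When the tumor was a block, 0.778% of genes and none of the 17 members passed by edgeR.

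Genes that act beside the members are given by lists, which were also left out of the clustering. Of 16 focal adhesion adaptors, the proteins that join integrins to actin, 1 was higher and 3 were lower in ductal epithelial-like than in fibroblast-like cells by edgeR, beside the 7.53% and 12.1% of all genes given above. Fermt1, the epithelial kindlin, had 111 and 169 CPM against 2.82 and 0.18 (log2 fold change 7.18), while the talin Tln2 (-4.33), the kindlin Fermt2 (-3.88) and the tensin Tns1 (-2.18) were lower. In macrophage or monocyte-like cells 1 was higher and 7 were lower, beside 9.91% and 13.7% of all genes: Fermt3, the kindlin of blood cells, had 135 and 111 CPM against 0.81 and 0.53 (log2 fold change 7.85), and Fermt2 (-8.09), Parva (-5.94) and Tln2 (-3.68) were lower. In fibroblast-like cells Fermt2 had 157 and 199 CPM, so that each of these classes had a different kindlin, the direct partner of integrin beta tails, at the highest level. The median log2 fold changes of the list were -0.75 and -1.002.

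Of 10 other basement membrane genes, 1 was higher and 2 were lower in the epithelium (Agrn 1.86, Col15a1 -6.44 and Hspg2 -2.41 on the log2 scale, list median -2.54), and 2 and 5 with the tumor as a block, where 27.9% of all genes passed. In macrophage or monocyte-like cells 0 were higher and 5 were lower, among them Col15a1 (-7.62), Col4a5 (-6.72), Hspg2 (-6.70) and Col4a2 (-6.65), with a list median of -5.86, and 8 were lower with the block, where 30.7% of all genes passed. The shares of all genes without the block are those given above for the adaptors. In endothelial-like cells Col18a1 was higher (3.79), beside 2.71% of all genes, and the list median was 1.27. Of 7 laminin receptors and hemidesmosome genes outside the integrins, Bcam, which binds the laminin alpha 5 chain, was higher in the epithelium (2.46; list median 0.77; with the block 1 was lower as well) and in mesothelial-like cells (3.74; list median 0.29), and Dst, Dag1 and Cd151 were lower in macrophage or monocyte-like cells (-3.19, -2.22 and -1.95; list median -1.95).

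Of 12 other integrin ligands, 2 were higher and 4 lower in the epithelium, beside 7.53% and 12.1% of all genes. The alpha 8 ligand Npnt (6.00) and Cdh1 (5.87), which also served to name the class, were higher. Postn (-8.55), Vtn (-8.32), Tnc (-5.78) and Thbs1 (-3.51) were lower. The list median was -1.97. In macrophage or monocyte-like cells 3 were higher and 4 lower, beside 9.91% and 13.7% of all genes. Icam2 (5.66), Cdh1 (2.65) and Thbs1 (2.52) were higher, with 1421 and 1837 CPM of Thbs1 against 269 and 403, Postn (-8.79), Cyr61 (-7.85) and Tnc (-7.79) were lower, and Vtn was not counted there, at least 76.6-fold below fibroblast-like cells. The list median was -1.60. Postn was also lower in mesothelial-like cells (-7.02), and Icam2, an endothelial ligand of the beta 2 integrins, was higher in endothelial-like cells (9.81). Between the fibroblast states, the osteopontin gene Spp1 (-6.80) and Tnc (-5.90) were lower in inflammatory-like than in myofibroblast-like cells by edgeR. Both are ligands of the integrin that holds Itga9. They were 2 of the 8 ligands tested, beside 0.447% of all genes. Of 3 other integrin subunits tested, Itga2b was lower in the epithelium (-2.92) and in macrophage or monocyte-like cells (-3.11). With the tumor as a block, edgeR called more of these genes elsewhere. In endothelial-like cells it called 1 higher and 1 lower adaptor, 1 higher laminin receptor and 2 higher and 2 lower ligands, beside 7.7% of all genes. In mesothelial-like cells it called 2 higher laminin receptors and 2 lower ligands, beside 2.35% of all genes. Between the fibroblast states it called 3 lower adaptors of 14, 1 lower basement membrane gene of 8 and 1 lower laminin receptor of 7. It also called 1 higher and 2 lower ligands of 8 there, and 7.15% of all genes. Single calls in lists this short say little about a list.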

How the data were processed

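The authors deposited whole UMI counts for each gene in each barcode, not normalized, for which the submitters' processing notes name CASAVA 1.4, Cell Ranger 2.0.0 and the build mm10. The deposited gene and barcode tables hold names only (other text, no measurement). The sources used here do not state the choice of barcodes. The design text speaks of technical replicates, which could not be told apart, so each library was taken as 1 sample, and same-numbered libraries as 1 tumor.

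Cells were kept from 500 genes upwards and up to 10% mitochondrial UMIs. The automatic doublet call of scrublet (scanpy 1.11.5, Python 3.11.15) marked 27 cells (0.3382%), under the 0.5% taken as a working caller, so the 157 cells with the highest scores, 0.8% per 1000 barcodes, were left out. The 2000 most variable genes, without the members, the other lists, mitochondrial and ribosomal protein genes, gave 30 components, 15 neighbours and Leiden clusters at resolution 1. Clusters took the name of the marker list with most members raised 2-fold or more and seen in 20% or more of their cells (at least 3 such markers), and a cluster stayed unnamed where its leading genes belonged to another class. Fibroblast-like cells were clustered again with 1000 genes, 20 components and resolution 0.5.

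CPM and shares were computed here from the deposited counts, with exact Poisson or Clopper-Pearson 95% intervals that cover counting error only. Counts were summed by library, or by tumor and class with at least 20 cells, and tested two-sided with edgeR 4.0.16 (R 4.3.3; quasi-likelihood, TMM, filterByExpr), with Benjamini-Hochberg adjustment over all genes at 0.05. All named classes entered 1 fit. Fold changes are log2, computed here from the authors' counts, and where sums are 0 they depend on edgeR's prior count. Levels at 0 were bounded with 3 counts over the group. In simulated data with a dispersion of 0.05, a value set and not estimated from these tumors, 4-fold and 16-fold changes were recovered in 98% and 99% of cases for the ductal comparison, 81% and 97% for the fibroblast states, and 96% and 100% for whole libraries; these shares check the scripts and are not the power of the real comparisons. Same-numbered sums come from the same animal, and their deviations correlated at 0.199 to 0.793 in the 8 comparisons, so the numbers pair the samples, and blocked fits are given where they change a count.

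Alternatives were DESeq2 1.42.0, RLE factors, no low-count filter, the block, leaving out each sum, doublets kept, the all live libraries alone and a Leiden resolution of 0.6. All 36 members are accounted for, members past the threshold are named, and of the other lists at most 4 genes per comparison, those with the largest change. The members and lists were chosen with earlier results of these data known. The second Itgam identifier, ENSMUSG00000108596 (Gm49368 in GENCODE M21, 280 UMIs against 6208), shares exons and strand with Itgam and was not used, and Itga1 overlaps exons of Gm49395. Positions are from GENCODE M21 and promoters from RefSeq. Protein sequences are not used here. Figures were drawn with matplotlib 3.10.9.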

Additional observations from a re-analysis of the deposited data

How the results depend on the processing

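Counts of members past the threshold moved with some settings. For whole libraries DESeq2 called 4 members against 0 by edgeR, and for the sort within ductal epithelial-like cells the replicate block called 1. For ductal epithelial-like against fibroblast-like cells, the all live libraries alone gave 12 members, and leaving out 1 sum gave 5 to 18, where the lone sum was assumed to vary like the other classes. For mesothelial-like cells DESeq2 called 1, the fit without a low-count filter 11 (6 higher, 5 lower) and the replicate block 3, and leaving out 1 sum gave 0. For blood endothelial-like cells the fit without a filter called 9 and leave-one-out gave 1 to 3. For the fibroblast states the fit without a filter called 4, the replicate block 6 and doublets kept 2, and leave-one-out gave 0 to 3. For macrophage or monocyte-like cells, and for the sort within fibroblast-like cells, the count of members stayed within 1.5 times under each alternative run. The cause of these changes was not tested.

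Counts over all genes moved as well. DESeq2 called 438 genes in whole libraries, 30 and 19 in the sort within ductal epithelial-like and fibroblast-like cells, 180 for mesothelial-like cells and 212 for the fibroblast states, where RLE factors gave 112. The block called 111, 68, 285, 3719 and 639 genes for both sorts within classes, mesothelial-like, macrophage or monocyte-like cells and the fibroblast states, and lost no member's call; it added 2 members for ductal epithelial-like cells (21) and 2 for the macrophage or monocyte-like class (21). Without the filter 2, 60, 3678, 703, 1334 and 558 genes passed for both sorts within classes, ductal, mesothelial and endothelial-like cells and the states. Leaving out 1 sum gave 5 to 63 for the sort in fibroblast-like cells (38 and 5 without all live tumors 1 and 2, 63 and 20 without sorted tumors 1 and 2), 934 to 2797 for ductal, 3 to 17 for mesothelial, 185 to 280 for endothelial, 1635 to 2040 for macrophage or monocyte-like cells and 5 to 345 for the states. The all live libraries alone gave 1226, 3, 408 and 1948 genes for ductal, mesothelial, endothelial and macrophage or monocyte-like cells, and doublets kept gave 54 for mesothelial-like cells and 301 for the states.

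None of the fold changes of members past the threshold changed sign in the alternatives run. Of 42 fold changes of members past the threshold, 9 lost the call with DESeq2, 11 with the all live libraries alone and none with RLE factors, no filter, the block or doublets kept. Over all fits that left out 1 sum, 43 such calls were lost and 122 held. Of the member levels, 30 moved by more than the spread between tumors with the all live libraries alone (186 did not), 22 with doublets kept (194 did not) and 1 at a Leiden resolution of 0.6 (215 did not). Values of single clusters were not recomputed. Of the classes tested, depth limits the endothelial-like one most: 3 UMIs over both tumors, the limit that a count of 0 allows, stand for 9.13 CPM there, while in tumor 2 they stand for 12.1 CPM in B or plasma-like and 11.2 CPM in T or NK-like cells, which were described only.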

Other observations

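Lamb3, which is known as an epithelial laminin chain, had its highest levels among whole classes in lymphocyte-like cells of tumor 2: 64.7 CPM in B or plasma-like cells (16 UMIs, exact Poisson interval 37.0 to 105 CPM) and 48.5 CPM in T or NK-like cells (13 UMIs, 25.8 to 83.0 CPM). Neutrophil-like cells had 8.37 and 25.7 CPM. The ductal epithelial-like cells of the same tumor had 23.5 CPM, and fibroblast-like cells, with 0.35 CPM, and macrophage or monocyte-like cells, with 1.93 CPM, had less. Within the ductal class, the Epcam-rich cluster had 163 CPM in tumor 1 and 51.6 CPM in tumor 2. The lymphocyte values rest on few UMIs in 1 tumor.

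Itgb7, a leukocyte subunit, had 115 UMIs in the ductal epithelial-like cells of tumor 1 (2.68 CPM) and 1 UMI in those of tumor 2 (0.24 CPM). Its level there was far below that of T or NK-like cells (160 CPM).

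Cells without a class name (22 of tumor 1, 379 of tumor 2) had 360 and 534 CPM of Itgam, 190 and 180 of Itgb2 and 848 and 1580 of Fn1.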
